A study of Mus musculus with 10 samples.

Results

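The clustered histone genes encode the linker histone H1 and the core histones H2A, H2B, H3 and H4, the proteins around which DNA is wound. On the array, 49 of 39429 probes carried an accession that RefSeq assigns to H1f1 to H1f6 or to a numbered H2ac, H2bc, H3c or H4c gene, and these 49 probes stood for 45 of the 64 such genes in the gene table. No member accession named more than 1 gene. Many copies of a core histone class are close in coding sequence, so a probe named for 1 copy may also read others. Which copies each probe matches was not looked up because probe sequences were not used here. H2ac22 and H2ac12, which had stood out in the same comparison before, led to the choice of this family, so the differences below are descriptions.

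RNA came from heart ventricles of male mice that were untreated (5 hearts, called controls) or had received aldosterone (5 hearts), a hormone of the adrenal cortex and ligand of the mineralocorticoid receptor, with a duration of 7 days labelled for both groups. Each heart was labelled as a mouse of its own. The sample titles of both groups, the aldosterone hearts included, also carry the label Ctrl, which the titles do not explain. No other treatment or genetic change was given for either group. Strain, age and dose are not given in the sources used here. Heart RNA in Cy5 was hybridised to 2-colour Agilent arrays against a pool of liver, brain, heart, kidney and spleen RNA in Cy3. Every value below is a log2 ratio of heart over this pool, and every difference is aldosterone minus control. The comparison addressed which cardiac genes aldosterone regulates. It used the scanner files of 9 arrays, 5 control and 4 aldosterone, and the deposited value table of 10 hearts, the source for aldosterone replicate 4.

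Histone mRNAs of this family are made mainly in S phase, when newly copied DNA needs histones. They end in a stem-loop bound by the protein SLBP instead of a poly(A) tail, and they are degraded when DNA synthesis stops. Most cardiomyocytes of an adult heart do not divide. Labelling started from a T7 promoter primer, which in kits of this maker carries oligo-dT, and how much non-polyadenylated histone mRNA was primed was not tested.

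The promoters of the genes named most often are printed here to show how the classes differ in sequence. Each run is the 170 bases before the RefSeq gene start, 5′ to 3′ on the gene's strand in the GRCm38.p6 build. Capitals mark CCAAT (the box bound by NF-Y), TATAAA, the octamer ATGCAAAT and the H1 box AAACACA, each on either strand.
H2ac22, chr13:21787249-21787418, minus strand: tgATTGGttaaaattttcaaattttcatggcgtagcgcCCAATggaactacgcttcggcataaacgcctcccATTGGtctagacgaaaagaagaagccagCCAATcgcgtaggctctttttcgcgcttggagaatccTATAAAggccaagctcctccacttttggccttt
H2ac12, chr13:22035644-22035813, minus strand: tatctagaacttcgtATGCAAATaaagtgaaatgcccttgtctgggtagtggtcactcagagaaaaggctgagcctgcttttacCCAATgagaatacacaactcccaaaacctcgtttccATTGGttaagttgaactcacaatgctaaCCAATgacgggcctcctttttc
H1f5, chr13:21780626-21780795, minus strand: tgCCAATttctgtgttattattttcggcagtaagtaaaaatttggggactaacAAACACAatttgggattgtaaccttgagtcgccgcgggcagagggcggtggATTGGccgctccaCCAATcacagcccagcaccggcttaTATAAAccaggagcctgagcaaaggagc
H4c12, chr13:21750554-21750723, minus strand: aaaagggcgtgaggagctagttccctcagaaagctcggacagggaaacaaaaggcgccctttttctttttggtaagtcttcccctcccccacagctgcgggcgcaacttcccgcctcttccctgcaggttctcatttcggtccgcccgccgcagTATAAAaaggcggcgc

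The H2ac22 stretch held 4 CCAAT boxes, those of H2ac12 and H1f5 held 3 each, and that of H4c12 held 0. Promoter windows of 250 bases were found for 58 of the 64 genes. CCAAT was present in 17 of 17 H2A, 14 of 14 H2B, 6 of 6 H1, 8 of 10 H3 and 3 of 11 H4 windows, against 33.8% of all 32851 promoters. The octamer ATGCAAAT was present in 6 of 17 H2A and 7 of 14 H2B windows and in 0 of the H1, H3 and H4 windows, against 1.6% of all promoters. AAACACA was present in 5 of 6 H1 windows, 2 of 17 H2A and 2 of 14 H2B windows, against 6.25%. TATAAA was present in 28 of 58 windows, against 12.4%. H2A and H2B genes often lie head to head, and 18 of the 58 windows overlapped that of a partner, H2ac22 with H2bc22 and H2ac12 with H2bc12 among them, so their motif counts are not separate. A match is a run of letters and no evidence of binding.

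Of the 49 probes, 41 (37 genes) had a Cy5 signal well above background on at least 4 of the 9 arrays and were tested. The probes of H1f3, H2ac8, H2ac21, H2bc3, H2bc22, H2bc23, H3c1 and H4c17 were above background on 0 to 3 arrays and were not. In the limma fit over 26877 probes, 0 of 41 members passed an adjusted p of 0.05, where 0% of all tested probes did, and 11 members had an unadjusted p under 0.05, where 6.11% of all tested probes did. The smallest adjusted p of a member was 0.141. The difference was above 0 for 29 of the 41 members, with a median of 0.05, and for 51.6% of all tested probes, with a median of 0.00360. With local backgrounds as in the files, 22 of 41 were above 0, with a median of 0.00730. Without aldosterone 1, 20 of 41 were above 0 with a median of -0.00280, and without control 3, 22 of 41 with a median of 0.0181. In the value table, 38 of 49 members were above 0, with a median of 0.09, where 52.1% of all probes were, and 0 members passed while 0.0254% of all probes did.

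The H2A probes had the highest class median. Of the 12 tested H2A probes, 11 were higher with aldosterone, with a median difference of 0.30. The medians were 0.11 for 5 H1 probes, 0.04 for 7 H2B probes, 0.05 for 7 H3 probes and -0.03 for 10 H4 probes. All 4 aldosterone arrays lay above all 5 controls for 5 H2A probes and for 0 probes of the other classes, where 1.37% of all tested probes did so, and nothing is read from that share because this comparison led to the family. In no member were all aldosterone arrays below all controls (0.651% of all tested probes), nor all aldosterone hearts in the value table (0.507% of its probes). Since the members were chosen with this contrast known, no test of a class against another was made.

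**Figure D1:**
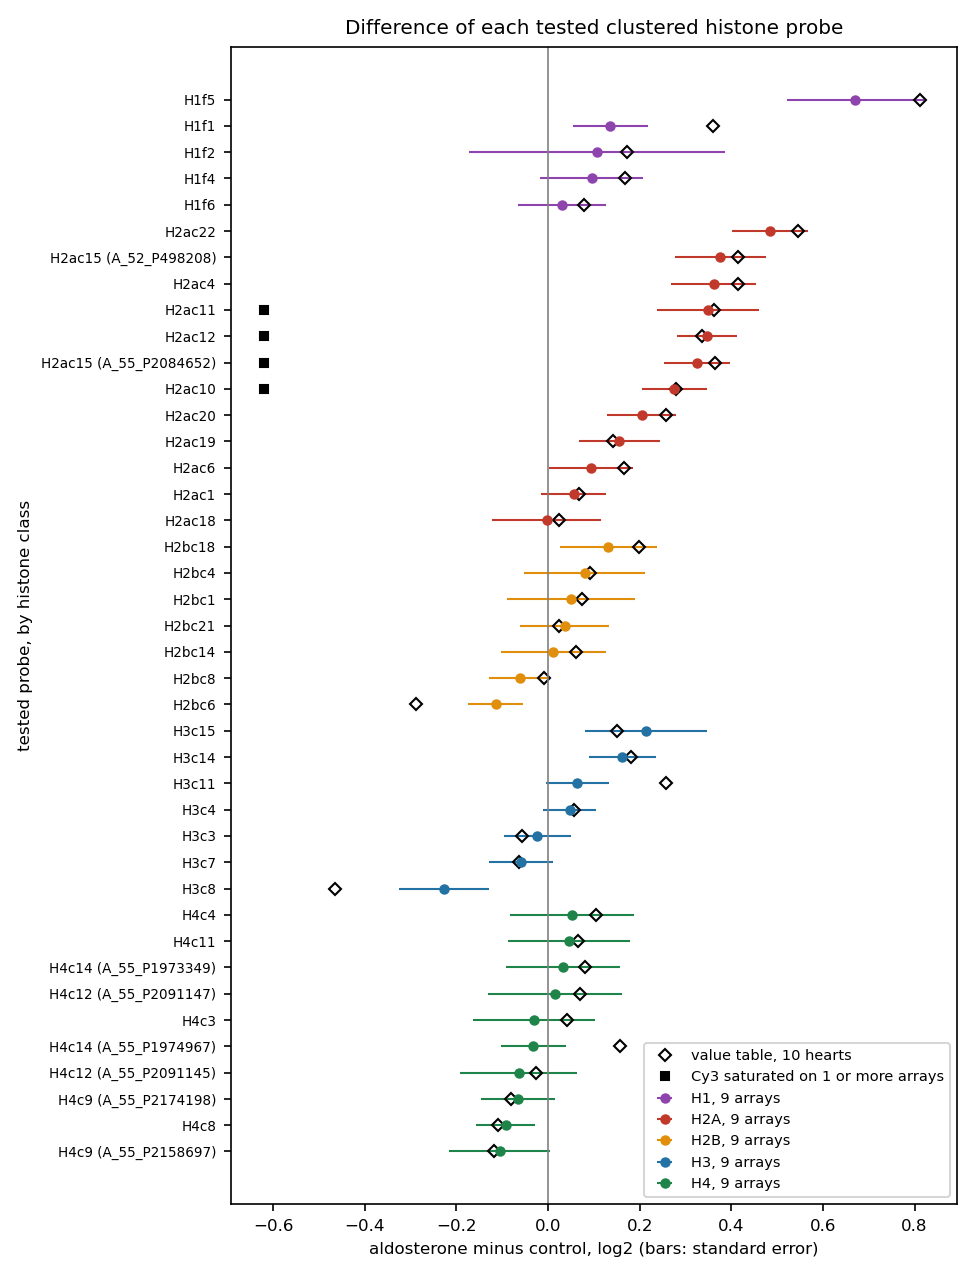
Aldosterone minus control difference in log2 ratio (horizontal axis) for the 41 tested probes, grouped by class, with standard errors from the limma fit on 5 control and 4 aldosterone arrays. Open diamonds are the same probes in the value table of 10 hearts, and black squares mark probes with a saturated Cy3 spot. The upper H2A probes and H1f5 lie farthest to the right, the lower H2A probes lie among those of other classes, and H4 probes lie around 0.

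H2A forms a dimer with H2B in the nucleosome. H2ac22 had log2 ratios of -4.19, -3.98, -4.13, -3.90 and -3.78 on controls 1 to 5. On aldosterone arrays 1, 2, 3 and 5 its ratios were -3.50, -3.54, -3.50 and -3.51. The 4 aldosterone arrays lay close together and above every control. The means were -4.0 ± 0.17 (SD, n = 5) and -3.51 ± 0.02 (SD, n = 4), a difference of 0.48 (SE 0.08) or 1.4-fold. In the value table, the 5 controls were -4.01, -3.72, -3.95, -3.65 and -3.56, and the 5 aldosterone hearts were -3.18, -3.36, -3.19, -3.14 and -3.27. The hearts again did not overlap, with aldosterone 4 highest, and the difference was 0.54 (SE 0.10). In whole ventricle RNA, a change in the number of cells of a type and a change in the RNA per cell cannot be told apart.

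The slides each held both groups, and within slides 1 to 4 H2ac22 was higher with aldosterone by 0.58, 0.59, 0.41 and 0.27. Every aldosterone array lay at position 2 of its slide and every control at 1 or 4, so treatment and position cannot be told apart. The reference channel alone differed by 0.05 (SE 0.03) for this probe and the Cy5 channel alone by 0.54 (SE 0.07).

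H2ac12 had ratios of -3.13, -3.08, -3.16, -2.95 and -2.97 on controls 1 to 5. On aldosterone arrays 1, 2, 3 and 5 it had -2.69, -2.82, -2.67 and -2.67. Every aldosterone array was above every control, with aldosterone 2 nearest to them. The difference was 0.35 (SE 0.07), or 1.27-fold, and it was 0.42, 0.34, 0.28 and 0.30 within the slides. It was 0.34 (SE 0.08) over the 10 hearts of the value table. The Cy3 spot of H2ac12 was saturated on 9 of 9 arrays, so its level against the reference is an upper bound. Cy5 alone differed by 0.35 (SE 0.07), but both channels enter its normalization, so this value is not free of the saturated Cy3 signal.

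**Figure D2:**
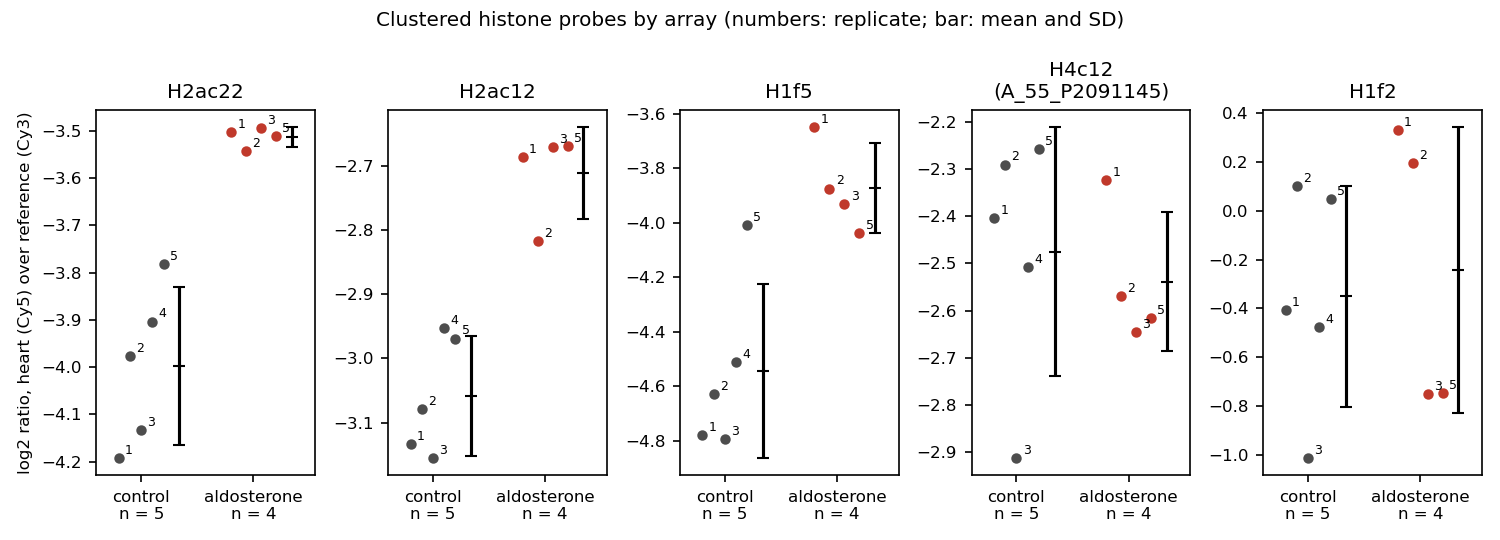
Log2 ratio of heart over reference on each array (points, numbered by replicate) for H2ac22, H2ac12, H1f5, an H4c12 probe and H1f2, with group mean and SD beside the points. The groups are apart for H2ac22 and H2ac12, control 5 falls within the aldosterone range for H1f5, and the groups overlap for H4c12 and H1f2.

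The other H2A genes ranged down to 0. H2ac15, which has 2 probes, differed by 0.38 (SE 0.10) and 0.33 (SE 0.07). H2ac4 differed by 0.36 (SE 0.09), H2ac11 by 0.35 (SE 0.11) and H2ac10 by 0.28 (SE 0.07). Of these, both H2ac15 probes and H2ac10 had no overlap between groups. The value table gave no overlap for H2ac22, H2ac12 and both H2ac15 probes, where 0.951% of its probes had all aldosterone hearts higher. The smaller differences were those of H2ac20 (0.20, SE 0.08), H2ac19 (0.16, SE 0.09), H2ac6 (0.09, SE 0.09), the testis form H2ac1 (0.06, SE 0.07) and H2ac18 (-0.00280, SE 0.12). The H2ac6 probe was dim, with Cy5 signals of 70.5 to 83 units, and was above background on 7 of the 9 arrays. By the position of the named gene, the 9 H2A probes on chromosome 13 were all higher, with a median of 0.35. The 3 on chromosome 3 had a median of 0.16, with 2 higher. The chromosome 13 probes include H2ac22 and H2ac12, which led to the family, and a probe may also read copies elsewhere. No pattern by chromosome is read from this split.

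Saturation touched the H2A class alone. The Cy3 spot was saturated on 9 of 9 arrays for H2ac11, H2ac12 and 1 H2ac15 probe, and on 3 arrays for H2ac10, and no Cy5 spot of the family was. The other 8 H2A probes had a median difference of 0.18, with 7 of 8 above 0. The H2ac15 probe that was not saturated had ratios of -4.07, -3.78, -4.16, -3.87 and -3.64 on controls 1 to 5, and -3.49, -3.52, -3.51 and -3.60 on the aldosterone arrays. Its groups did not overlap, as those of the saturated H2ac15 probe did not.

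**Figure D3:**
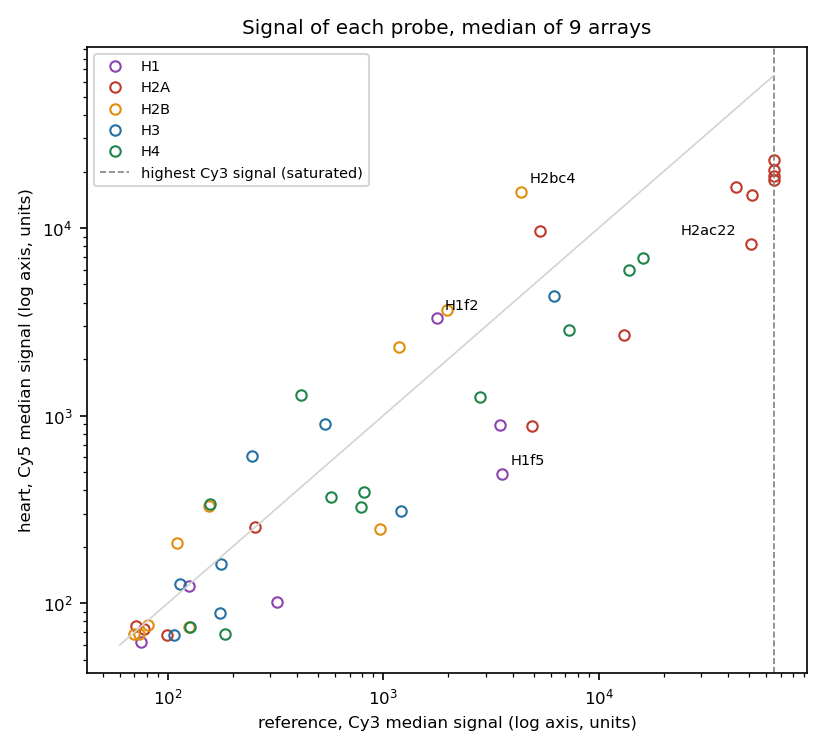
Median Cy5 signal of heart RNA against median Cy3 signal of the reference pool over 9 arrays, in scanner units on log axes, 1 circle per probe coloured by class. The dashed line marks the highest Cy3 signal, where 4 H2A circles sit, and the grey line marks equal signals.

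The 7 H2A probes of largest difference moved together from array to array. Over the 9 arrays, which include both groups, those of H2ac4, H2ac10, H2ac11, H2ac12, H2ac15 and H2ac22 had pairwise Pearson correlations of 0.812 to 0.994, with a median of 0.918. These probes were picked after their values were seen, and they may read some of the same copies, so this is a description with no p. The class medians of H2A were -3.12, -3.08, -3.25, -2.97 and -3.04 on controls and -2.74, -2.92, -2.74 and -2.76 on aldosterone arrays, and the groups did not overlap. Nothing is read from this separation, because the same comparison led to the family.

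H1 linker histones bind where DNA enters and leaves the nucleosome. H1f5 had the largest difference of the 41 members, 0.67 (SE 0.15) or 1.59-fold. With all arrays it did not pass, at an adjusted p of 0.275 in limma and 0.726 with slide added to the fit. Its ratios were -4.78, -4.63, -4.79, -4.51 and -4.01 on controls 1 to 5, and -3.65, -3.87, -3.93 and -4.04 on aldosterone arrays 1, 2, 3 and 5. Control 5 lay above aldosterone 5, so the groups overlapped by that control. On slides 1 to 4 the difference was 1.05, 0.92, 0.58 and -0.03, the last from the slide that holds control 5. Without control 5 it was 0.80 (SE 0.10), with an adjusted p of 0.0452 in limma, and H1f5 was then the 1 member among 12 of 26877 probes that passed. The value table gave 0.81 (SE 0.17) with all hearts, at an adjusted p of 0.233 in limma. Without control 5 it gave 0.96 (SE 0.11), with an adjusted p of 0.0309 in limma, where 33 of 39429 probes passed. The fits without control 5 leave out the control that lay within the aldosterone range, so nothing is read from these passes.

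The other H1 genes had smaller differences, with H1f1 at 0.14 (SE 0.08, and 0.36, SE 0.15, in the value table), H1f2 at 0.11 (SE 0.28), H1f4 at 0.10 (SE 0.11) and the testis form H1f6 at 0.03 (SE 0.10). The H1f1 probe was dim, with Cy5 signals of 89 to 126 units. H1f2 had the widest spread. It was at -0.41, 0.10, -1.01, -0.48 and 0.05 on controls and 0.33, 0.20, -0.75 and -0.75 on the aldosterone arrays. The 4 arrays above 0, controls 2 and 5 and aldosterone 1 and 2, also had positive scores on the first principal component of the tested probes outside the family, which held 32.5% of the variance. With that component as a covariate, H1f2 differed by 0.09 (SE 0.07). The H2A class median was 0.30 with that covariate.

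**Figure D4:**
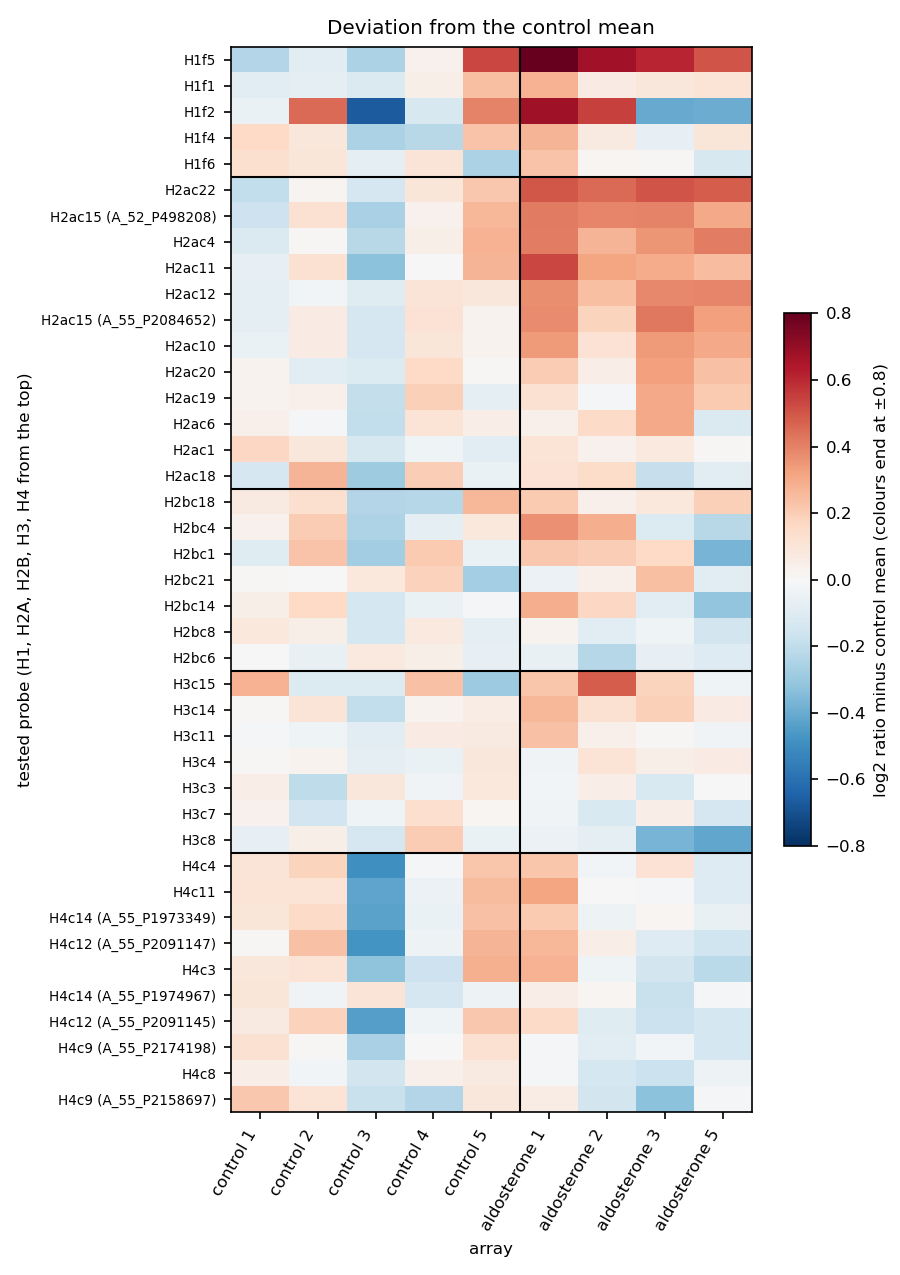
Each tested probe's log2 ratio on each array minus its mean over the 5 controls, in rows by class and columns by array, with colours that end at ±0.8. The upper H2A rows and H1f5 are red on all 4 aldosterone arrays, H1f2 is red on control 2, control 5, aldosterone 1 and aldosterone 2, and most H4 rows are blue on control 3.

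H2B probes showed no common direction, with 5 of 7 higher. They ranged from H2bc6 at -0.11 (SE 0.06) to H2bc18 at 0.13 (SE 0.11), and H2bc4 was at 0.08 (SE 0.13). H2bc4 had 0.53, 0.70, 0.25, 0.42 and 0.58 on controls and 0.86, 0.79, 0.38 and 0.27 on aldosterone arrays, with the groups overlapping. H2bc6 was at -0.29 (SE 0.10) in the value table. The partners of the H2ac22 and H2ac12 promoters offered no comparison, because H2bc22 was above background on 2 arrays and no probe is named for H2bc12.

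H3 and H4 form the tetramer at the centre of the nucleosome. H3c15 was at 0.21 (SE 0.13), H3c14 at 0.16 (SE 0.07) and H3c8, the lowest, at -0.23 (SE 0.10). The 7 H3 probes split 4 higher and 3 lower. In the value table H3c8 was at -0.46 (SE 0.29) and H3c11, at 0.06 (SE 0.07) on the scanner values, was at 0.26 (SE 0.11). With local backgrounds as in the files, H3c14 was at 0.00730.

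The H4 probes lay near 0, from H4c9 at -0.11 (SE 0.11) to H4c4 at 0.05 (SE 0.14). One H4c12 probe had -2.40, -2.29, -2.91, -2.51 and -2.26 on controls and -2.32, -2.57, -2.65 and -2.62 on the aldosterone arrays. Control 3 had the lowest ratio of the 9 arrays for 7 H4 probes, those of H4c3, H4c4, H4c11, both of H4c12, 1 of H4c14 and 1 of H4c9. Without control 3 the H4 median on the scanner values was -0.11, and without control 5 it was 0.0159. The 6 of these other than the H4c9 probe correlated with each other at 0.827 to 0.981 over the 9 arrays and with the 7 H2A probes at 0.00427 to 0.722, with a median of 0.322. The 2 H4c9 probes lay on either side of the reference, at -1.62 ± 0.20 and 0.46 ± 0.15 in controls (SD, n = 5).

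In the reference channel alone, 0 members passed and 2 had an unadjusted p under 0.05 in limma, where 950 of 26877 probes did. The larger was an H4c9 probe, whose Cy3 signal was higher on aldosterone arrays by 0.16 (SE 0.06). The other was an H4c14 probe, at -0.10 (SE 0.04).

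Genes that act on histone mRNA and histones were read from lists chosen by function. For each listed gene and each cell type marker below, only the tested probe of highest mean signal over both channels was used. Among 15 tested genes of histone mRNA 3′ end processing and transcription, 0 passed, 7 were higher and the median difference was -0.00250. Slbp, which binds the stem-loop, differed by 0.01 (SE 0.08), and Upf1, an RNA helicase that takes part in histone mRNA decay, was at -0.18 (SE 0.06), below all controls on all aldosterone arrays, as 0.651% of all tested probes were. Cpsf2, part of the cleavage complex, differed by 0.41 (SE 0.21). Of 13 genes listed as replication-independent histones, 0 passed and 8 were higher, with a median of 0.06. H2ax, an H2A variant in that list, differed by 0.21 (SE 0.07). Of 18 chaperone genes, 0 passed and 11 were higher, with a median of 0.03, and Chaf1b, a subunit of the complex that loads H3 and H4 on new DNA, differed by 0.21 (SE 0.07).

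S phase genes gave larger differences, with 16 of 20 higher, a median of 0.18 and 0 that passed. For 7 of the 20 all aldosterone arrays lay above all controls, as they did for 1.37% of all tested probes. Nothing is read from that share, because the list was chosen with earlier results of these data known. Mcm6, a subunit of the replicative helicase, differed by 1.01 (SE 0.13), the proliferation marker Mki67 by 0.84 (SE 0.15), the cyclin gene Ccna2 by 0.72 (SE 0.11) and Rrm2, which makes deoxyribonucleotides, by 0.40 (SE 0.09). The lower genes of the list were Cdk2 (-0.07, SE 0.06), Ccne1 (-0.06, SE 0.12), Tyms (-0.02, SE 0.07) and Mcm2 (-0.01, SE 0.10). Without control 5, Mcm6 (1.06), Ccna2 (0.78) and Mki67 (0.96) passed, and without control 3 Mcm6 (1.10) did. In each of these fits, 12 of 26877 probes passed. Control 5 had the highest mean of this list among the controls (-1.49), and the list was chosen with earlier results known. These passes are descriptions, and nothing is read from them. The mean of the S phase list was -1.67 to -1.49 on controls and -1.41 to -1.28 on aldosterone arrays.

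Markers of cell types that ventricle tissue can hold are given beside these values, and 0 of them passed in any of the 7 lists. All 6 fibroblast markers were higher, and their mean was 0.12 to 0.59 on controls and 0.48 to 0.88 on aldosterone arrays. All 3 tested erythroid markers were higher, with means of -3.88 to -2.90 and -2.73 to -2.19 that did not overlap. Cardiomyocyte markers, the check of the tissue, had means above the pool on all 9 arrays and were higher in 1 of 6 (0.73 to 1.08 on controls, 0.80 to 1.08 on aldosterone arrays), lymphocyte markers in 1 of 6 (-2.76 to -2.53 and -2.78 to -2.58), endothelial markers in 2 of 5 (0.48 to 0.72 and 0.59 to 0.72), macrophage markers in 3 of 4 (-1.31 to -0.63 and -1.01 to -0.71) and smooth muscle and pericyte markers in 4 of 5 (0.71 to 1.10 and 0.82 to 1.20). The part of these cell types in the histone differences was not tested.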

How the data were processed

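RNA of 10 ventricles was compared, 5 per group, 1 mouse each. The authors' scanner files hold spot intensity values and a log10 ratio with Cy5 as numerator, per the file headers; the submitters' processing notes name Agilent Feature Extraction 10.7.3.1. In the value table the authors deposited 1 log2 ratio per probe and heart. Set against the scanner's ratios it gave a slope of 1 and r of 0.9965 to 0.9999 on 9 arrays, and 82.7% to 86.6% of probes lay within 0.001. The remaining differences are not explained in the sources used here, its column medians were -0.01 to 0.12, and direction and scale follow from the match.

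Median signals were used. Local backgrounds over 20 units from an array's median were replaced by that median, normexp was run with an offset of 50, and each array was normalized by loess, its control spots having weight 0, in R 4.3.3 with limma 3.58.1. The replacement was adopted because stray backgrounds gave control 1 a normexp noise SD of 193 units, against 0.866 to 16.2 on the other arrays and 1.34 for control 1 after it. For values of a channel alone, the mean log signal of both channels was then made alike across arrays (Aquantile in limma). Such values therefore still depend on the other channel. Spots flagged as outliers were left out and spots of a probe averaged. Probes with Cy5 well above background on 4 or more arrays were tested with limma (lmFit and eBayes, two-sided, Benjamini-Hochberg over 26877 probes, threshold 0.05) on 5 control and 4 aldosterone arrays. Between 25349 and 27955 probes were above background on an array, and the number of arrays limits the precision. RefSeq's gene table (GRCm38.p6) gave a symbol for 26581 of 39429 probes by accession.

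The members, the gene lists, the background replacement and the alternatives were chosen with earlier results of these data known. The named genes were H2ac22 and H2ac12, then any gene of a class with its highest and lowest probe, then up to 4 genes of smallest p in each list. Slbp and the lower S phase genes were named beside these. The fit was tested on simulated data.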

Additional observations from a re-analysis of the deposited data

Results flagged for a closer look

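Of 90 groups of arrays screened, 2 held an array far from the others of its group, and chance flags about 1 group in 20. H2ac12 on aldosterone 2 had a log2 ratio of -2.82, where the nearest of the other 3 aldosterone arrays was -2.69 and the farthest -2.67. It was still above every control. H2bc1, a testis H2B gene, had -0.66 on aldosterone 5, where the other 3 aldosterone arrays lay between -0.13 and -0.07.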

How the results depend on the processing

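The number of arrays and the saturated reference spots limit the precision. The differences of H2ac22, H2ac12, the other 5 H2A probes of largest difference, H1f5 and H2bc6 kept their sign under all alternatives run, H2ac22 between 0.44 and 0.54 and H1f5 between 0.48 and 0.81. The sign turned in 3 of 29 alternatives for H1f2, 9 for H2ac18, 1 each for H2bc4 and H2bc18, and 4 of 28 for 1 H4c12 probe. With local backgrounds as in the files, the members' median was 0.00730, H1f5 was at 0.48 and H2ac22 at 0.47. Across all probes, 8 passed with the scanner's own log ratio, 10 in the value table, 2 in it without aldosterone 4, 2 with the replicate block and 1 with the first principal component as a covariate. In the value table, 0 passed with the replicate block and 2 after subtracting each heart's median. Leaving out 1 array at a time gave 0 to 12 calls over all probes (12 without control 3 or control 5), 0 to 1 member call, 20 to 32 members higher and a median of -0.00280 to 0.0965, lowest without aldosterone 1. Over the 10 hearts of the value table it gave 2 to 33 calls, most without control 5. The members' median level in controls was -1.88, with -1.90 to -1.86 when leaving out 1 array. It was -2.02 with an offset of 16, -2.32 with the scanner's log ratio and in the value table with or without aldosterone 4, -1.15 with median centring, -1.05 without a filter, -2.24 for probes above background on all 9 arrays, -2.34 above the median signal and -1.45 without saturated members, an alternative added after the data were seen. The levels without a filter, with a stricter filter and without saturated members differ from the main one in which probes enter the median. What caused the other moves was not tested. Same-numbered arrays did not deviate together in a way that pairs them (correlations of 0.0591, 0.337, 0.34 and -0.321 on the scanner files and -0.0927 to 0.171 in the value table), so the replicate block is a setting and no pairing.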
